A study of Mus musculus with 20 samples.

Results

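The mesenchyme of the embryonic mouse intestine was compared with that of the embryonic stomach in animals without a deletion. The comparison rests on 4 of the 20 samples in the series, namely RNA-seq libraries from control embryos, 2 for the intestine and 2 for the stomach. They were taken by their labels and not by a measured value. All 4 were labelled C57BL/6, although the study's methods describe its mice as of mixed background, and came from embryos at E13.5 with the genotype *Bapx1*-cre;*Rosa26*mTmG, and GFP+ cells were sorted from each organ after dissection. None of these embryos carried the floxed *Eed* allele that is deleted elsewhere in the series. In such animals the Cre drives a lasting switch from membrane Tomato to membrane GFP, so that the sorted cells are those of the *Bapx1* (*Nkx3-2*) lineage and can include several cell types. Dead cells were removed with a dye. The study names the 2 libraries of an organ as biological replicates, without the number of embryos in each, and the p-values below measure only the spread between such libraries.

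The gut tube forms from an inner endoderm and an outer layer of splanchnic mesoderm, and signals pass in both directions between them. The mesodermal layer gives rise to smooth muscle, interstitial cells, fibroblasts and pericytes, and it sends Wnt, BMP, FGF and retinoic acid signals that help to set the fate of the epithelium along the tube. Homeobox, T-box, GATA and forkhead transcription factors are known to record the position of these mesenchymal cells. The gene families and pathways described here lie beyond the *Hox* genes and the regulators *Barx1*, *Mecom*, *Hand1* and *Nkx2-3*.

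Between 30236159 and 39606157 gene counts were available per control library, and a count of 0 allows a level of up to 0.0757 to 0.0992 CPM, a limit for counting error only. Levels are given as CPM, counts relative to the library total after TMM scaling, and a log2 fold change is always intestine minus stomach with its standard error, so that a negative value is higher in the stomach. Differentially expressed genes (DEGs) had an adjusted p under 0.05 in the quasi-likelihood test of edgeR and a difference over 2-fold. Replicates correlated with a Pearson r of 0.988 in each organ across genes and libraries of different organs with 0.963 to 0.969. *Xist* was at 36.3 to 123 CPM and the Y-linked *Ddx3y* at 30.8 to 79.5 CPM over the 4 libraries, with overlapping ranges in the organs, so each library held RNA of both sexes. Spike-in RNA took 26227 and 26837 counts in the intestine libraries and 37590 and 36020 in the stomach libraries, and with these totals as library sizes the median log2 fold change of all genes moved by 0.30 toward the intestine. Every fold change below is relative to TMM scaling. Of 153 DEGs picked by the naming rule, only 54 kept their call under spike-in scaling. None changed direction, but a shift of 0.30 could hardly reverse differences over 2-fold. Leaving out 1 control library moved the fold by over 1.5 times for 25 of these 153 DEGs.

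Of 16218 genes tested, 822 were DEGs (5.07%). The intestine was higher in 273 of them (1.68% of tested genes) and the stomach in 549 (3.39%). At any fold size, an adjusted p under 0.05 was reached by 1107 genes (6.83%). Here the intestine was higher in 389 (2.40%) and the stomach in 718 (4.43%). Differences over 8-fold were seen in 69 intestinal and 121 gastric DEGs. For all 822 DEGs, both libraries of one organ lay above both of the other, an order also held by 24.5% of all tested genes with the intestine above and 26.7% with the stomach above. *Hox* genes account for 20 of the DEGs, 157 fall in 64 gene lists drawn up for this comparison, and 641 are outside both. Scaling by spike-in totals left 70 intestinal and 85 gastric DEGs, and with any 1 control library left out there were 149 to 173 intestinal DEGs, the fewest without stomach library 2, and 214 to 330 gastric DEGs, the fewest without intestine library 1. The lists hold 1155 genes of the files, of which 993 passed the low-count filter and 162 did not. In bulk RNA, fewer cells of a type and less RNA per cell cannot be told apart.

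Regulators, signalling genes and adhesion genes held more gastric than intestinal DEGs. Among 202 transcription factors tested, 9 were intestinal DEGs (4.46%) and 31 were gastric DEGs (15.3%). Among 298 signalling genes these counts were 11 (3.69%) and 49 (16.4%), and among 103 adhesion and guidance genes they were 2 (1.94%) and 16 (15.5%). Extracellular matrix genes numbered 5 intestinal and 10 gastric DEGs of 125. Genes of differentiated cell types were more evenly divided, with 6 intestinal (9.52%) and 7 gastric DEGs (11.1%) of 63 and a median log2 fold change of 0.13. Genes of cell state, which cover the cell cycle, Polycomb, imprinting and stress, had 1 intestinal and 4 gastric DEGs among 168. These shares, 0.595% and 2.38%, compare with 1.68% and 3.39% over all tested genes. The median log2 fold change was -0.09 over the transcription factors, -0.11 over the signalling genes and -0.19 over adhesion and guidance, while that of all tested genes was 0.00, so the typical member of these lists had a small difference.

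**Figure D1:**
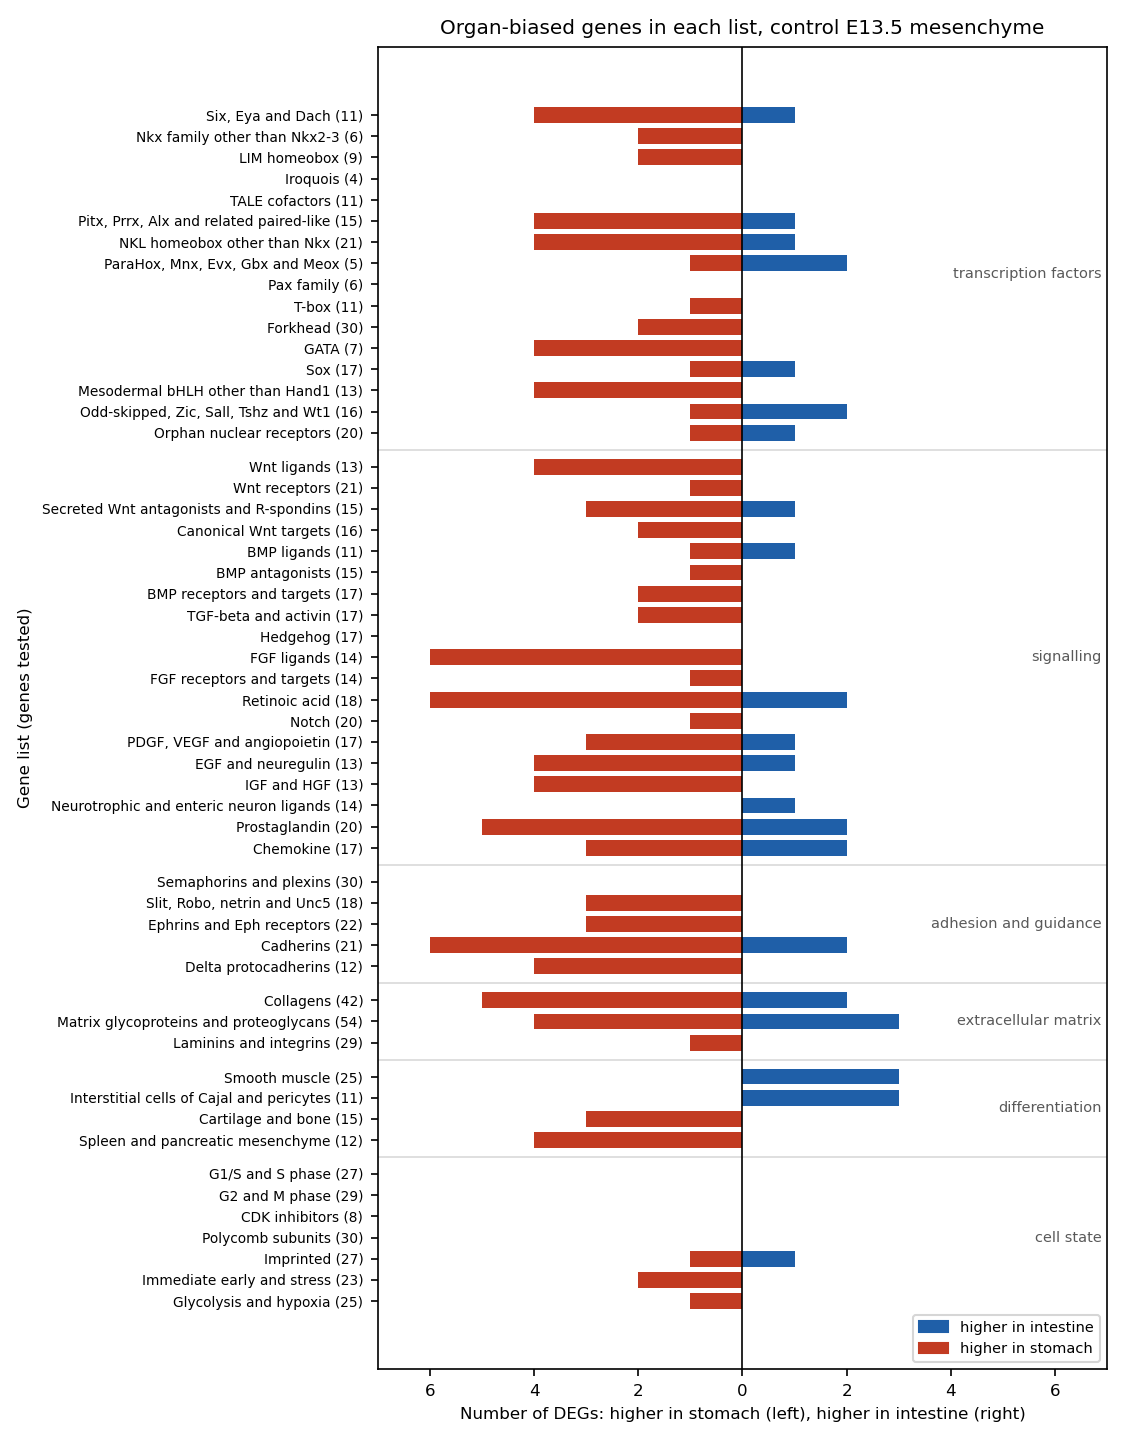
The number of DEGs in each of the 54 lists other than cell type markers, with those higher in the stomach drawn to the left and those higher in the intestine to the right, and the genes tested in parentheses. Gastric DEGs reach 6 in the list of FGF ligands, which includes intracellular FGFs, in the retinoic acid genes and in the cadherins. No list has more than 3 intestinal DEGs, and 9 lists have no DEG.

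The sorted cells carried mesenchymal markers at high levels in both organs. Summed over 12 mesenchymal markers, as CPM of the library total, expression was 14682 to 18629 CPM in the intestine libraries and 17418 to 21062 CPM in the stomach libraries, and *Col3a1*, a fibrillar collagen, was the most abundant of them. Markers of other lineages were far lower, and several of their sums did not overlap between the organs. Markers of mesothelium, the covering of the organs, summed to 428 to 663 CPM in the intestine libraries and 754 to 779.8 CPM in the stomach libraries, with *Gpm6a* a gastric DEG (log2 fold change -1.95 ± 0.20, adjusted p = 0.0017) and *Upk3a* at 0 counts in all libraries. Enteric neural crest and neuron markers summed to 518 to 568 CPM in the intestine libraries and 613 to 742 CPM in the stomach libraries. This sum was led by the GDNF co-receptor *Gfra1* (313 CPM over the control libraries), and the median marker was at 1.14 CPM. Of 15 tested neural markers, 4 were gastric DEGs, *Gfra1* among them, and 1 was intestinal, the abundant *Ednrb*. Epithelial markers summed to 66 to 105 CPM in the intestine libraries and 111 to 118 CPM in the stomach libraries. This sum was led by the keratin *Krt19* (52.1 CPM over the control libraries), which is in the mesothelial list as well, and the median marker was at 0.239 CPM. Of 14 tested markers *Epcam*, an adhesion molecule of epithelia, and the tight junction gene *Cldn6* were gastric DEGs. *Epcam* was at 4.19 and 3.87 CPM in the intestine libraries and 15.1 and 13.54 CPM in the stomach libraries (log2 fold change -1.83 ± 0.20, adjusted p = 0.0019). Calls were lost for *Cldn6* without intestine library 1 (adjusted p = 0.11) or intestine library 2 (adjusted p = 0.055) or stomach library 2 (adjusted p = 0.056) and *Gfra1* without intestine library 2 (adjusted p = 0.080) or stomach library 1 (adjusted p = 0.10).

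Blood vessel and blood markers gave no single direction. Endothelial markers summed to 25.6 to 30.4 CPM in the intestine libraries and 27 to 28.7 CPM in the stomach libraries, and 4 of 14 were intestinal DEGs and 2 gastric DEGs. *Pecam1*, an endothelial adhesion molecule, was higher in the intestine (log2 fold change 2.51) and the ETS factor *Erg* in the stomach (log2 fold change -2.67). Leukocyte markers summed to 11.4 to 13.4 CPM in the intestine libraries and 6.36 to 7.77 CPM in the stomach libraries, with 0 of 5 tested markers a DEG in edgeR or DESeq2, 1 in DESeq2 with the spike-in factor and 2 at an unadjusted p under 0.05 in edgeR. *Lyz2*, a lysozyme of myeloid cells, was higher in the intestine at any fold size (log2 fold change 0.97 ± 0.20, adjusted p = 0.030). It made up most of the leukocyte sum, at 8.15 CPM over the control libraries, while the median of the 14 leukocyte markers was 0.0748 CPM. Erythroid markers summed to 15.2 to 26.4 CPM in the intestine libraries and 5.39 to 19.1 CPM in the stomach libraries, with *Gata1* at 0. Markers of skeletal muscle summed to 24.3 to 26.1 CPM in the intestine libraries and 31.8 to 31.9 CPM in the stomach libraries, those of pancreas to 1.98 to 3.08 CPM in the intestine libraries and 2.05 to 3.05 CPM in the stomach libraries and those of liver to 0.769 to 1.19 CPM in the intestine libraries and 1.73 to 2.07 CPM in the stomach libraries, with the pancreatic *Ptf1a*, *Ins1*, *Ins2* and *Cel* at 0. The part of these other cells in the results below was not tested. With 1 library left out, the call was lost for *Pecam1* without intestine library 2 (adjusted p = 0.072) or stomach library 1 (adjusted p = 0.093) or stomach library 2 (adjusted p = 0.063).

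**Figure D2:**
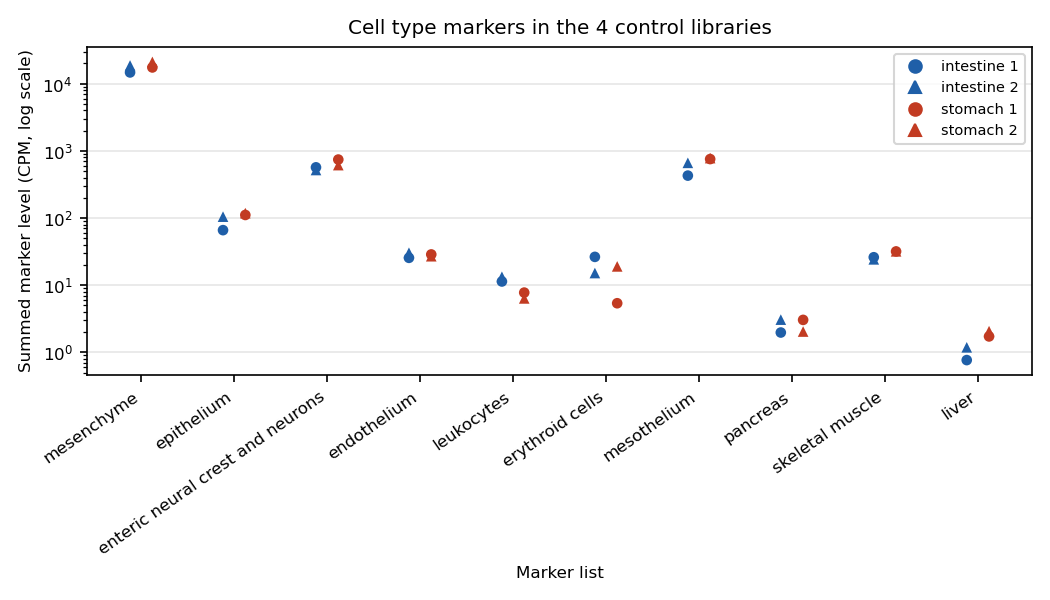
The summed level of each marker list in CPM on a log scale, with 1 point for each control library (circles for libraries numbered 1, triangles for 2). The mesenchymal sum lies between 14682 and 21062 CPM and the highest other sum is 779.8 CPM. The mesothelial, neural, epithelial, skeletal muscle and liver sums are above the intestine in both stomach libraries and the leukocyte sum is below it. Single genes lead the neural sum (*Gfra1*) and the leukocyte sum (*Lyz2*).

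Homeobox genes of the sine oculis, Nkx, LIM and paired-like families included gastric regulators with large differences. *Six2*, which maintains progenitors in the kidney and acts in the pyloric sphincter, was at 5.76 and 13.1 CPM in the intestine libraries and 197 and 149 CPM in the stomach libraries (log2 fold change -4.20 ± 0.36, adjusted p = 0.00083). *Eya4*, a phosphatase and co-activator of sine oculis proteins, was at 1.49 and 1.08 CPM in the intestine libraries and 9.51 and 6.25 CPM in the stomach libraries (log2 fold change -2.60 ± 0.27, adjusted p = 0.0017). *Eya1*, a second co-activator of the same kind, went the other way, at 3.71 and 3.6 CPM in the intestine libraries and 1.22 and 1.02 CPM in the stomach libraries (log2 fold change 1.71 ± 0.20, adjusted p = 0.0029). For none of these did the libraries of the organs overlap. Of 11 genes tested in the list of sine oculis, Eya and Dach genes, 4 were gastric and 1 was an intestinal DEG, and the abundant members *Six5* and *Eya3* did not pass the test. The co-repressors *Dach1* and *Dach2* were the other gastric DEGs, and their calls were lost for *Dach2* without intestine library 1 (adjusted p = 0.058) or intestine library 2 (adjusted p = 0.058) and *Dach1* without intestine library 1 (adjusted p = 0.21) or intestine library 2 (adjusted p = 0.16) or stomach library 2 (adjusted p = 0.18). *Six2* had a log2 fold change of -4.90 without intestine library 2.

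*Nkx6-1*, a homeobox gene best known from pancreatic beta cells and the neural tube, had no counts in either intestine library and 3.13 and 3.54 CPM in the stomach libraries, and was at least 72.9-fold higher in the stomach against a floor of 3 counts over the intestine (adjusted p = 0.00095). *Emx2*, a homeobox gene of the urogenital system and forebrain, also had no intestinal counts and was at least 39.9-fold higher, with 1.91 and 1.76 CPM in the stomach. *Lhx9*, a LIM homeobox gene of the gonad and limb, had 2 counts in the intestine and 946 in the stomach, a ratio of 419 (95% counting interval, 116 to 3465). These genes were close to silent in the intestine libraries and at a low or moderate level in both stomach libraries. *Isl1*, a LIM homeobox factor of heart, neurons and the gastric wall, was at 3.46 and 4.95 CPM in the intestine libraries and 66.5 and 42.1 CPM in the stomach libraries (log2 fold change -3.70 ± 0.32, adjusted p = 0.00089). *Nkx2-5*, which acts in the heart, spleen and pyloric sphincter, was at 0.478 and 1.18 CPM in the intestine libraries and 32.1 and 6.4 CPM in the stomach libraries, so that its stomach libraries were far apart. The call was lost for *Nkx2-5* without intestine library 1 (adjusted p = 0.15) or intestine library 2 (adjusted p = 0.077), and without stomach library 1 its log2 fold change was -2.97 in place of -4.56. *Nkx2-5* was further from 0 in other fits, with a log2 fold change of -5.32 without intestine library 2 and -5.30 without stomach library 2.

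Paired-like and related homeobox genes gave 15 tested members, with 4 gastric DEGs and 1 intestinal DEG. *Pitx1*, which specifies the hindlimb, was at 7.73 and 13.1 CPM in the intestine libraries and 159 and 219 CPM in the stomach libraries (log2 fold change -4.18 ± 0.27, adjusted p = 0.00032). *Prrx1*, a factor of limb and craniofacial mesenchyme, was at 0.899 and 1.51 CPM in the intestine libraries and 22.6 and 33.1 CPM in the stomach libraries (log2 fold change -4.55 ± 0.28, adjusted p = 0.00026). *Alx4*, a factor of the limb and skull, was the intestinal DEG (log2 fold change 2.25 ± 0.34, adjusted p = 0.0081). The call was lost for *Alx4* without stomach library 2 (adjusted p = 0.076). The related pair *Meox1* and *Meox2*, which pattern somites, split between the organs. *Meox2* was at 1.74 and 1.68 CPM in the intestine libraries and 11.8 and 21.6 CPM in the stomach libraries (log2 fold change -3.28 ± 0.35, adjusted p = 0.0017). *Meox1* was at 4.66 and 5.25 CPM in the intestine libraries and 2.43 and 1.91 CPM in the stomach libraries (log2 fold change 1.19 ± 0.19, adjusted p = 0.011), though the latter call was lost for *Meox1* without intestine library 1 (adjusted p = 0.053) or intestine library 2 (adjusted p = 0.073) or stomach library 2 (adjusted p = 0.086).

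The intestine had its own smaller set of regulators, led by *Hlx* and *Esrrb*. *Hlx*, a homeobox gene that the mesenchyme needs for growth of the intestine and liver, was at 78.1 and 104 CPM in the intestine libraries and 12.6 and 3.37 CPM in the stomach libraries (log2 fold change 3.52 ± 0.52, adjusted p = 0.0079). *Esrrb*, an orphan nuclear receptor known from pluripotent cells, was at 8.37 and 6.97 CPM in the intestine libraries and 0.522 and 0.79 CPM in the stomach libraries (log2 fold change 3.53 ± 0.33, adjusted p = 0.0011). *Sall1*, a zinc finger factor of the kidney, and *Sall4*, its relative of limb and germ cells, were 8.97-fold and 4.52-fold higher in the intestine (adjusted p = 0.0019 and 0.0013). In all 4 genes both intestine libraries were above both stomach libraries, and the calls held with any 1 library left out. The log2 fold change of *Hlx* was 4.76 without stomach library 1 and 2.86 without stomach library 2. *Sox13*, a SoxD factor, was the intestinal DEG among 17 Sox genes (log2 fold change 1.52 ± 0.20, adjusted p = 0.0046). *Sox9*, which drives cartilage and acts in the pylorus, was the gastric one, at 0.983 and 1.18 CPM in the intestine libraries and 12.3 and 10.6 CPM in the stomach libraries (log2 fold change -3.40 ± 0.22, adjusted p = 0.00032). The even-skipped gene *Evx2*, which lies beside the *Hoxd* cluster and was picked after its values were seen, had 0.478 and 0.639 CPM in the intestine and no counts in the stomach, at least 13.55-fold higher in the intestine, a call lost for *Evx2* with any library left out (adjusted p from 0.12 to 0.14).

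Of 7 genes tested in the list of GATA factors and their partners, 4 were gastric DEGs and none intestinal, with a list median of -1.81. *Gata4*, a regulator of heart and foregut, was at 1.01 and 1.38 CPM in the intestine libraries and 14.5 and 15.5 CPM in the stomach libraries (log2 fold change -3.66 ± 0.35, adjusted p = 0.0013). *Gata2* was 8.86-fold higher in the stomach (adjusted p = 0.0057), at levels of 0.149 and 1.37 CPM. *Gata3*, which acts in the pyloric sphincter, was at 0.253 and 0.774 CPM in the intestine libraries and 13 and 2.88 CPM in the stomach libraries, again with unequal stomach libraries. *Gata6*, the GATA factor with the highest level per length, did not pass the test at 12.7 and 22.1 CPM in the intestine libraries and 36.8 and 32.4 CPM in the stomach libraries (log2 fold change -0.99 ± 0.25, adjusted p = 0.059). Calls were lost for *Gata3* without intestine library 1 (adjusted p = 0.21) or intestine library 2 (adjusted p = 0.089) or stomach library 1 (adjusted p = 0.061) and *Gata5* with any library left out (adjusted p from 0.053 to 0.12), the last a gastric DEG of the list, and without stomach library 1 the log2 fold change of *Gata3* was -2.52 in place of -3.98. Other values of *Gata3* were -3.34 without intestine library 1, -4.95 without intestine library 2 and -4.69 without stomach library 2.

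Among basic helix-loop-helix, T-box and nuclear receptor genes differences were concentrated in a few members. *Nr2f1* (COUP-TFI), an orphan nuclear receptor of neural and mesenchymal cells, was at 29.7 and 33.8 CPM in the intestine libraries and 139 and 179.6 CPM in the stomach libraries (log2 fold change -2.33 ± 0.14, adjusted p = 0.00026), whereas its close relative *Nr2f2* did not pass the test (log2 fold change -0.31 ± 0.13, adjusted p = 0.28). *Msc* (musculin), a repressor of the helix-loop-helix family, was at 1.43 and 0.976 CPM in the intestine libraries and 8.46 and 7.32 CPM in the stomach libraries (log2 fold change -2.70 ± 0.29, adjusted p = 0.0018). *Tcf21*, the most abundant of 13 tested helix-loop-helix genes per length, did not pass the test, with 796 TPM for the intestine and 873 TPM for the stomach. *Twist1*, a mesenchymal factor, and *Wt1*, a zinc finger factor of kidney and mesothelium, were near the fold cutoff (log2 fold changes -1.04 and -1.04). *Tbx18* was the 1 DEG of 11 T-box genes (log2 fold change -2.21 ± 0.48, adjusted p = 0.035). Leaving out a library ended the calls of *Twist1* without intestine library 1 (adjusted p = 0.19) or intestine library 2 (adjusted p = 0.091) or stomach library 2 (adjusted p = 0.084) and *Wt1* without intestine library 1 (adjusted p = 0.097) or stomach library 1 (adjusted p = 0.091) or stomach library 2 (adjusted p = 0.10). *Tbx18* lost its call without intestine library 1 (adjusted p = 0.24) or intestine library 2 (adjusted p = 0.071) or stomach library 2 (adjusted p = 0.16). Without stomach library 2 the log2 fold change was -0.68 for *Twist1* and -1.46 for *Tbx18*. That of *Tbx18* was -2.82 without intestine library 2.

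Many regulators of gut mesenchyme were well expressed in both organs and were not DEGs. *Foxf1*, the forkhead target of Hedgehog signals in this tissue, was at 372 and 339 CPM in the intestine libraries and 378 and 379 CPM in the stomach libraries, which did not pass the test (log2 fold change -0.09 ± 0.11, adjusted p = 0.81). Its relative *Foxf2* was 1.82-fold higher in the intestine, with an adjusted p of 0.0058 and so a call at any fold size only. Of 30 forkhead genes tested 2 were gastric DEGs and none intestinal. *Foxc2*, of blood and lymph vessels and chosen after its values were seen, was among them (log2 fold change -1.43). The call was lost for *Foxc2* with any library left out (adjusted p from 0.055 to 0.29). The 11 TALE cofactors had no DEG. The Iroquois genes (4 tested) and the Pax genes (6 tested) had no DEG either, with no mean above 0.734 CPM in the first and 0.285 CPM in the second, levels at which a difference is hard to detect. At an unadjusted p under 0.05 in edgeR there were 2 TALE, 2 Iroquois and 1 Pax genes, and DESeq2 called 1 Pax gene and none of the others.

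**Figure D3:**
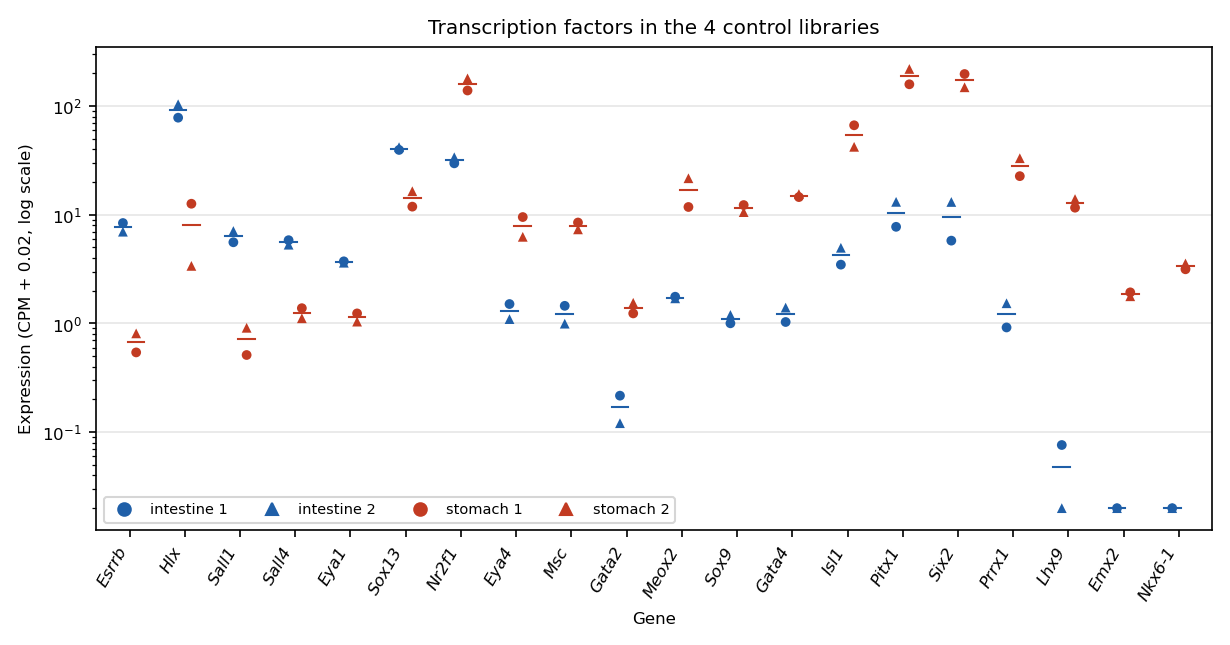
Expression of the 20 transcription factors picked by the naming rule whose call held with any 1 library left out, in each control library (CPM plus 0.02 on a log scale, bars at the mean of an organ). The genes run from the largest intestinal excess (*Esrrb*) to the largest gastric excess (*Nkx6-1*), and in each the 2 blue and the 2 red points are separate.

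The promoters of the regulators with the largest changes are shown for their CpG content, and both organs had an accessible region over each of them, as over most tested genes. Each line gives the 250 bases before the RefSeq transcript start on GRCm38.p6, written 5′ to 3′ on the strand of the gene, with every CpG in capitals. CpG-dense promoters are the usual sites at which Polycomb complexes bind.
Nkx6-1: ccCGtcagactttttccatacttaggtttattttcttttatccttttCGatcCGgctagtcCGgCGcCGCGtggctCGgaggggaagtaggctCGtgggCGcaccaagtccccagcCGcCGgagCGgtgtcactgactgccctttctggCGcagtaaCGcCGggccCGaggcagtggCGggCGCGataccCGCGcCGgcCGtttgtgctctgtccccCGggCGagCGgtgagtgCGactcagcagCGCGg
Emx2: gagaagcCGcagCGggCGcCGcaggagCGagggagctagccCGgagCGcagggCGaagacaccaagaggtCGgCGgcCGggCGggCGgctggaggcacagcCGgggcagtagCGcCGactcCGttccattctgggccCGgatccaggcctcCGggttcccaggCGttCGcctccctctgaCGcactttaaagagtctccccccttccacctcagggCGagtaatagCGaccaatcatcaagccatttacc
Hlx: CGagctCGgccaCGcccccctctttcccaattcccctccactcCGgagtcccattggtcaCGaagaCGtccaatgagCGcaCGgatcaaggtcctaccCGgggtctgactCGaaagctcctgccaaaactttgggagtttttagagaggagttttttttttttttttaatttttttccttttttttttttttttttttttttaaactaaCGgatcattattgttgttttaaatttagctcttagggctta
Esrrb: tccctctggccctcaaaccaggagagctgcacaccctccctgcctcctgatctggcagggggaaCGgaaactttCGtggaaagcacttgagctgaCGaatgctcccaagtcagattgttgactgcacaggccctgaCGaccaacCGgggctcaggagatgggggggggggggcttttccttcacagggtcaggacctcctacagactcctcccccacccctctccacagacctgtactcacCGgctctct

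The promoter of *Nkx6-1* (chr5:101664712-101664961, minus strand) holds 30 CpG and that of *Emx2* (chr19:59458440-59458689, plus strand) holds 24. The promoter of *Hlx* (chr1:184732494-184732743, minus strand) holds 11, and the first of 2 starts of *Esrrb* (chr12:86360867-86361116, plus strand) holds 6. The median over 32851 promoters in the table was 6, so the gastric pair and the intestinal *Hlx* were above it. The intestinal *Esrrb* was at it for the first start and below it for the second, which holds 3 CpG. ATAC-seq peaks, called by the authors on pooled replicates with 1 list per organ, covered all 4 in both lists. Their fold enrichment over background was 3.98 in the intestine and 4.12 in the stomach at *Nkx6-1*, and 3.76 and 3.66 at *Emx2*. At *Hlx* the intestine had 3.62 and the stomach 3.24, and at *Esrrb* these were 3.95 and 3.06. Since each organ has 1 list, these values carry no error and were not tested.

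Genes that make and remove retinoic acid were split between the organs. Retinoic acid is made from retinol in 2 steps, binds nuclear receptors, and is broken down by enzymes of the Cyp26 family, and it patterns the gut tube along its length. Of 18 genes tested, 2 were intestinal DEGs and both are enzymes of synthesis. *Aldh1a1*, which makes retinoic acid from retinaldehyde, was at 555 and 357 CPM in the intestine libraries and 11.8 and 14.6 CPM in the stomach libraries (log2 fold change 5.11 ± 0.34, adjusted p = 0.00032). *Rdh10*, which makes retinaldehyde from retinol, was at 341 and 289.9 CPM in the intestine libraries and 140.4 and 148 CPM in the stomach libraries (log2 fold change 1.13 ± 0.11, adjusted p = 0.0015). Neither gene had overlapping libraries. *Aldh1a2*, the main enzyme of synthesis in most embryonic tissues, was 1.4-fold higher in the intestine, under the fold cutoff (adjusted p = 0.025). Per length it was close to *Aldh1a1* in the intestine, at 650.1 and 663 TPM, but far above it in the stomach, at 472 and 19.5 TPM.

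The 6 gastric DEGs of the retinoic acid list are an enzyme of breakdown, binding proteins and receptors. *Cyp26a1*, which clears retinoic acid, was at 0.73 and 0.875 CPM in the intestine libraries and 15.9 and 16.9 CPM in the stomach libraries (log2 fold change -4.35 ± 0.26, adjusted p = 0.00026). *Crabp1*, a cytoplasmic retinoic acid binding protein, was at 15.6 and 9.52 CPM in the intestine libraries and 101 and 96.6 CPM in the stomach libraries (log2 fold change -2.97 ± 0.21, adjusted p = 0.00047). The receptor gene *Rarb* was at 43.9 and 45.9 CPM in the intestine libraries and 125 and 119 CPM in the stomach libraries (log2 fold change -1.44 ± 0.11, adjusted p = 0.00059), and the receptor partner *Rxrg* was 7.58-fold higher in the stomach (adjusted p = 0.0054). *Crabp2*, a second binding protein, and *Rarg*, a second receptor, completed the group (log2 fold changes -1.68 and -1.01), and their calls were lost for *Crabp2* without intestine library 1 (adjusted p = 0.072) or intestine library 2 (adjusted p = 0.12) or stomach library 1 (adjusted p = 0.085) and *Rarg* without intestine library 2 (log2 fold change -0.99) or stomach library 2 (log2 fold change -0.90). *Dhrs3*, which returns retinaldehyde to retinol, was higher in the stomach at under 2-fold (log2 fold change -0.71 ± 0.14, adjusted p = 0.027). *Rarb*, *Rarg* and *Dhrs3* fell outside the naming rule and were picked after their values were seen.

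*Cyp26a1* and *Rarb* are known targets of retinoic acid receptors, and their promoters are shown for the element through which these receptors bind. The capitals mark a direct repeat of 2 blocks of 6 bases with a spacer of 5.
Cyp26a1: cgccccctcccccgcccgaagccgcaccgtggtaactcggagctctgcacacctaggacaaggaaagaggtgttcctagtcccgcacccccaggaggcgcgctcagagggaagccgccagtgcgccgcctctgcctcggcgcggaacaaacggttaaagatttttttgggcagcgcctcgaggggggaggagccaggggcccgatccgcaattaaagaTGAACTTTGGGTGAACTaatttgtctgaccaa
Rarb: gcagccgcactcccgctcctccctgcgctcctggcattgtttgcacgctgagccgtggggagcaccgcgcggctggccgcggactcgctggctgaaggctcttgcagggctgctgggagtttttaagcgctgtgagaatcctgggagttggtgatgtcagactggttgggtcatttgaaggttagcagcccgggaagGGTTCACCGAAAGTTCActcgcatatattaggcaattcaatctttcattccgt

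The motifs searched, on both strands, were AGTTCA or GGTTCA followed by 5 free bases and AGTTCA, the spellings known for these 2 genes. In *Cyp26a1* (chr19:37697558-37697807, plus strand) the match starts 32 bases before the transcript start on the opposite strand, and in *Rarb* (chr14:16575477-16575726, minus strand) it starts 53 bases before it on the strand of the gene. Of 32851 promoter windows of the same length, 9 hold such a match (0.0274%). The spellings were those of these 2 genes, so their matches were given in advance. Other spellings of the element were not counted. A peak covered both promoters in both organs, with a fold enrichment of 3.43 in the intestine and 3.25 in the stomach at *Cyp26a1* and of 6.98 and 7.28 at *Rarb*. A match of letters does not show that a receptor binds there.

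Wnt ligands differed in the gastric direction. Wnts are secreted lipid-modified proteins that act through Frizzled receptors and, in one branch, through beta-catenin and the Tcf and Lef factors. Of 13 ligands tested, 4 were gastric DEGs and none intestinal, with a list median of -1.23. *Wnt2b*, the most abundant of the 4, was at 32.9 and 47 CPM in the intestine libraries and 85.7 and 102 CPM in the stomach libraries (log2 fold change -1.23 ± 0.25, adjusted p = 0.026). *Wnt2* was at 0.0562 and 0.202 CPM in the intestine libraries and 1.25 and 3.03 CPM in the stomach libraries (log2 fold change -4.08 ± 0.68, adjusted p = 0.012). *Wnt11*, a ligand of the branch without beta-catenin, was at 6.69 and 5.75 CPM in the intestine libraries and 14.2 and 11.5 CPM in the stomach libraries (log2 fold change -1.04 ± 0.21, adjusted p = 0.029). All libraries of the stomach were above those of the intestine. *Wnt3*, the last of the 4 and below the level set for naming, had 1 count in the intestine and 27 in the stomach, a ratio of 23.9 (95% counting interval, 3.94 to 979). The calls were lost for *Wnt2* without intestine library 1 (adjusted p = 0.12) or stomach library 2 (adjusted p = 0.050) and *Wnt2b* with any library left out (adjusted p from 0.052 to 0.19). *Wnt11* lost its call with any library left out (adjusted p from 0.067 to 0.18). *Wnt3* lost its call with any library left out (adjusted p from 0.051 to 0.14), and without intestine library 1 the log2 fold change of *Wnt3* was -6.71 in place of -4.29. *Wnt5a*, the ligand with the highest level per length in both organs, did not pass the test (log2 fold change 0.41 ± 0.16, adjusted p = 0.23). *Wnt2* had a log2 fold change of -3.38 without intestine library 1, -5.17 without intestine library 2 and -3.29 without stomach library 2.

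Secreted modulators of Wnt signalling were divided. *Dkk2*, an inhibitor that binds the Lrp co-receptors, was the intestinal DEG of 15 genes, at 118 and 102 CPM in the intestine libraries and 43.5 and 37.8 CPM in the stomach libraries (log2 fold change 1.43 ± 0.14, adjusted p = 0.0011). Higher in the stomach were the R-spondin *Rspo2*, which strengthens Wnt signals, and *Sfrp2*, which binds Wnts (log2 fold changes -1.44 and -1.13), together with *Sfrp4* of the same family, which had no counts in the intestine and was at least 8.86-fold higher. The abundant *Sfrp1* was at 970.3 and 930 CPM in the intestine libraries and 1018 and 897 CPM in the stomach libraries and did not pass the test. *Lef1*, a nuclear effector and target of the pathway, was at 0.197 and 0.505 CPM in the intestine libraries and 3.86 and 3.06 CPM in the stomach libraries (log2 fold change -3.33 ± 0.40, adjusted p = 0.0032), while 14 of 16 genes in the list of Wnt targets were not DEGs. The other DEG there was the zinc finger target *Sp5*, with 0 counts in the intestine and 27 in the stomach, at least 7.97-fold higher. *Sfrp4* and *Sp5* were named after their values were seen. Among 21 receptor genes only *Fzd5* was a DEG, at 16.5 and 13.2 CPM in the intestine libraries and 79.9 and 39.95 CPM in the stomach libraries (log2 fold change -2.01 ± 0.30, adjusted p = 0.0082). With single libraries removed, calls were lost for *Rspo2* without intestine library 1 (adjusted p = 0.19) or intestine library 2 (adjusted p = 0.19) or stomach library 2 (adjusted p = 0.18) and *Sfrp2* without intestine library 1 (adjusted p = 0.20) or stomach library 1 (adjusted p = 0.081) or stomach library 2 (adjusted p = 0.18). *Sfrp4* lost its call with any library left out (adjusted p from 0.071 to 0.11). *Sp5* lost its call without intestine library 1 (adjusted p = 0.14) or intestine library 2 (adjusted p = 0.094) or stomach library 2 (adjusted p = 0.11). *Fzd5* lost its call without intestine library 1 (adjusted p = 0.059) or intestine library 2 (adjusted p = 0.073). *Lef1* had a log2 fold change of -4.11 without intestine library 2.

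BMP and TGF-beta genes showed strong differences in single members of their lists. *Bmp3*, a ligand that opposes other BMPs, was at 39.1 and 43.7 CPM in the intestine libraries and 2.99 and 6.09 CPM in the stomach libraries (log2 fold change 3.18 ± 0.45, adjusted p = 0.0066). *Bmp6*, a classical ligand, was higher in the stomach (log2 fold change -1.22 ± 0.18, adjusted p = 0.0082). *Bmp4*, the most abundant ligand per length, did not pass the test (log2 fold change 0.83 ± 0.23, adjusted p = 0.083). *Bmpr1b*, a type I receptor, was at 4.33 and 4.91 CPM in the intestine libraries and 85.3 and 71.2 CPM in the stomach libraries (log2 fold change -4.08 ± 0.16, adjusted p = 5.0e-05), whereas the broadly expressed receptor *Bmpr1a* was at 519.8 and 475 CPM in the intestine libraries and 543 and 533 CPM in the stomach libraries (log2 fold change -0.11 ± 0.10, adjusted p = 0.70). Of 17 receptors and targets 2 were gastric DEGs, the second being the target *Msx1* (log2 fold change -2.22 ± 0.30, adjusted p = 0.0050). The antagonist *Chrdl1* was at 29.9 and 27.1 CPM in the intestine libraries and 93.2 and 71.5 CPM in the stomach libraries (log2 fold change -1.53 ± 0.16, adjusted p = 0.0016), and the 14 other antagonists tested had no DEG. *Tgfb2*, a TGF-beta ligand, was at 33.3 and 45 CPM in the intestine libraries and 134 and 142 CPM in the stomach libraries (log2 fold change -1.82 ± 0.16, adjusted p = 0.00099). Calls were lost for *Bmp6* without intestine library 1 (adjusted p = 0.072) or intestine library 2 (adjusted p = 0.069) or stomach library 1 (adjusted p = 0.056) and *Msx1* without intestine library 1 (adjusted p = 0.058). *Bmp3* had a log2 fold change of 3.80 without stomach library 2.

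Members of the FGF ligand list that differed were all gastric. The list holds secreted FGFs and also intracellular members of the family. Secreted FGFs act through receptor tyrosine kinases, and *Fgf10* from mesenchyme is needed for growth of the stomach and other foregut organs. Of 14 list members tested, 6 were gastric DEGs and none intestinal, against 3.39% of all genes, and the list median was -1.38. *Fgf12*, *Fgf13* and *Fgf14* among the 6 are intracellular, so the count is not one of secreted ligands alone. *Fgf10* was at 32.8 and 43.3 CPM in the intestine libraries and 139 and 88.8 CPM in the stomach libraries (log2 fold change -1.58 ± 0.24, adjusted p = 0.0086), and its relative *Fgf7* at 0.0843 and 0.236 CPM in the intestine libraries and 3.22 and 6.32 CPM in the stomach libraries (log2 fold change -4.92 ± 0.51, adjusted p = 0.0016). *Fgf12*, an intracellular member that binds sodium channels, was at 2.11 and 2.32 CPM in the intestine libraries and 12.3 and 15.8 CPM in the stomach libraries (log2 fold change -2.67 ± 0.19, adjusted p = 0.00042), and *Fgf14*, of the same subfamily, had a log2 fold change of -2.38. The others, named after their values were seen, were *Fgf13* of that subfamily and the secreted *Fgf5* (log2 fold changes -1.46 and -1.30). Libraries of the organs were apart in all 6. Of 14 receptors and targets only *Il17rd* (Sef), an inhibitor of FGF signals, was a DEG (log2 fold change -1.07 ± 0.16, adjusted p = 0.0082), and *Fgfr2*, the receptor with the highest level per length, was not (log2 fold change 0.54 ± 0.13, adjusted p = 0.054). Leave-one-out fits lost *Fgf10* without intestine library 1 (adjusted p = 0.086) and *Fgf14* without intestine library 1 (adjusted p = 0.085) or intestine library 2 (adjusted p = 0.058). *Fgf13* lost its call without intestine library 1 (adjusted p = 0.055). *Fgf5* lost its call without intestine library 1 (adjusted p = 0.17) or stomach library 1 (adjusted p = 0.084) or stomach library 2 (adjusted p = 0.19). *Il17rd* lost its call without intestine library 1 (adjusted p = 0.060) or intestine library 2 (adjusted p = 0.073) or stomach library 1 (adjusted p = 0.052). *Fgf7* had a log2 fold change of -4.31 without intestine library 1 and -5.77 without intestine library 2.

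Growth factors of the IGF, EGF and PDGF families followed. *Igf1*, a growth factor with a broad action on organ size, was at 203 and 206 CPM in the intestine libraries and 694 and 632 CPM in the stomach libraries (log2 fold change -1.70 ± 0.11, adjusted p = 0.00034). *Igf2*, one of the most abundant RNAs in both organs, was at 4064 and 5051 CPM in the intestine libraries and 4728 and 5859 CPM in the stomach libraries (log2 fold change -0.22 ± 0.21, adjusted p = 0.74). The IGF binding protein *Igfbp3* was 7.18-fold higher in the stomach (adjusted p = 0.0013), and *Met*, the HGF receptor, was 3.43-fold higher (adjusted p = 0.0022). Together with *Igfbp6* (log2 fold change -2.36) these were the 4 gastric DEGs of 13 genes, and none was intestinal. Of 13 EGF and neuregulin genes 1 was an intestinal and 4 were gastric DEGs. *Btc* (betacellulin), a ligand of the EGF receptor, was at 0.871 and 1.08 CPM in the intestine libraries and 7.1 and 9.56 CPM in the stomach libraries (log2 fold change -3.10 ± 0.38, adjusted p = 0.0032). *Nrg1* (neuregulin), a ligand of Erbb3, was higher in the intestine (log2 fold change 1.20). *Pdgfd*, a PDGF ligand, was at 4.1 and 5.92 CPM in the intestine libraries and 17.4 and 20.1 CPM in the stomach libraries (log2 fold change -1.91 ± 0.22, adjusted p = 0.0025), and the receptor genes *Pdgfra* and *Pdgfrb* did not pass the test (log2 fold changes -0.42 and 0.41). *Figf* (Vegfd) and its receptor *Flt4*, which act in lymphatic vessels, were gastric DEGs (log2 fold changes -2.48 and -2.08), and *Angpt1*, a ligand that steadies vessels, was intestinal (log2 fold change 1.06). In fits with 1 library less, calls were lost for *Igfbp6* without stomach library 1 (adjusted p = 0.066) or stomach library 2 (adjusted p = 0.086) and *Nrg1* with any library left out (adjusted p from 0.073 to 0.17). *Figf* lost its call without intestine library 1 (adjusted p = 0.087) or intestine library 2 (adjusted p = 0.072). *Flt4* lost its call with any library left out (adjusted p from 0.056 to 0.19). *Angpt1* lost its call without intestine library 1 (adjusted p = 0.058) or stomach library 1 (log2 fold change 0.88). *Igfbp6* had a log2 fold change of -1.75 without intestine library 1 and -3.31 without intestine library 2.

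Hedgehog and Notch lists had a single DEG between them. With 5.07% of all tested genes called, lists of this size hold few DEGs in any case. None of 17 Hedgehog genes was a DEG in edgeR or DESeq2, with 2 at an unadjusted p under 0.05, and the abundant surface protein *Gas1* was at 498 and 552 CPM in the intestine libraries and 477 and 422 CPM in the stomach libraries (log2 fold change 0.22 ± 0.13, adjusted p = 0.46). Of 20 Notch genes the target *Hey1* was the only DEG (log2 fold change -1.03 ± 0.16, adjusted p = 0.010), with a call that was lost for *Hey1* with any library left out (adjusted p from 0.060 to 0.099).

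Prostaglandin genes differed in both directions. Prostaglandins are lipid signals made by cyclooxygenases and sensed by G protein-coupled receptors, and they act on smooth muscle and on mesenchyme beneath the epithelium. *Ptgdr*, the receptor of prostaglandin D2, had no counts in the intestine and 4.52 and 8.36 CPM in the stomach, at least 143-fold higher (adjusted p = 0.0034). *Ptgs2*, the inducible cyclooxygenase, was at 5.9 and 5.28 CPM in the intestine libraries and 1.51 and 1.1 CPM in the stomach libraries (log2 fold change 2.11 ± 0.28, adjusted p = 0.0048). *Ptgir*, the prostacyclin receptor, was at 8.12 and 8.14 CPM in the intestine libraries and 2.9 and 2.8 CPM in the stomach libraries (log2 fold change 1.51 ± 0.17, adjusted p = 0.0021). *Ptgis*, the enzyme that makes prostacyclin, was higher in the stomach, the organ with less of the receptor RNA (log2 fold change -1.02 ± 0.09, adjusted p = 0.00097, picked after its values were seen). The receptors *Ptger1*, *Ptger2* and *Ptgfr* were also gastric DEGs (log2 fold changes -1.73, -1.74 and -1.34). The list held 20 tested genes with 2 intestinal and 5 gastric DEGs, and calls were lost for *Ptgis* without intestine library 1 (log2 fold change -0.97) or stomach library 1 (log2 fold change -0.97) and *Ptger1* without intestine library 2 (adjusted p = 0.068). *Ptger2* lost its call without intestine library 2 (adjusted p = 0.056) or stomach library 2 (adjusted p = 0.071). *Ptgfr* lost its call with any library left out (adjusted p from 0.051 to 0.19).

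Ligands for enteric neurons and chemokines gave a few DEGs each. *Bdnf*, a neurotrophin, was at 21.5 and 18.7 CPM in the intestine libraries and 6.9 and 6.88 CPM in the stomach libraries (log2 fold change 1.55 ± 0.13, adjusted p = 0.00073) and was the 1 DEG of 14 ligands. *Edn3* (endothelin 3), which guides neural crest cells into the gut, was 1.92-fold higher in the intestine with an adjusted p of 0.0051, just under the fold cutoff, and its receptor gene *Ednrb* was at 201 and 188 CPM in the intestine libraries and 49 and 57.6 CPM in the stomach libraries (log2 fold change 1.87 ± 0.27, adjusted p = 0.0067). *Gdnf*, the ligand of Ret and Gfra1, did not pass the test (log2 fold change 0.39 ± 0.10, adjusted p = 0.067), while *Gfra1* was higher in the stomach (log2 fold change -1.13 ± 0.20, adjusted p = 0.017). Of 17 chemokine genes 2 were intestinal and 3 were gastric DEGs. *Cxcl14*, a chemokine, was at 0.253 and 0.875 CPM in the intestine libraries and 9.68 and 26.1 CPM in the stomach libraries (log2 fold change -5.03 ± 0.62, adjusted p = 0.0034). *Ccl2*, which attracts monocytes, was higher in the intestine (log2 fold change 2.03 ± 0.32, adjusted p = 0.010). The abundant *Cxcl12* was 1.92-fold higher in the intestine (adjusted p = 0.0086). The neural marker sum given above was led by *Gfra1* itself and also holds *Ednrb*, so it is not separate from these genes. The part of neural cells here was not tested. Lost calls were those of *Ednrb* without stomach library 1 (adjusted p = 0.061) and *Gfra1* without intestine library 2 (adjusted p = 0.080) or stomach library 1 (adjusted p = 0.10). *Ccl2* lost its call without intestine library 2 (adjusted p = 0.063) or stomach library 1 (adjusted p = 0.070). *Cxcl14* had a log2 fold change of -4.34 without intestine library 1, -6.13 without intestine library 2 and -4.13 without stomach library 2.

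**Figure D4:**
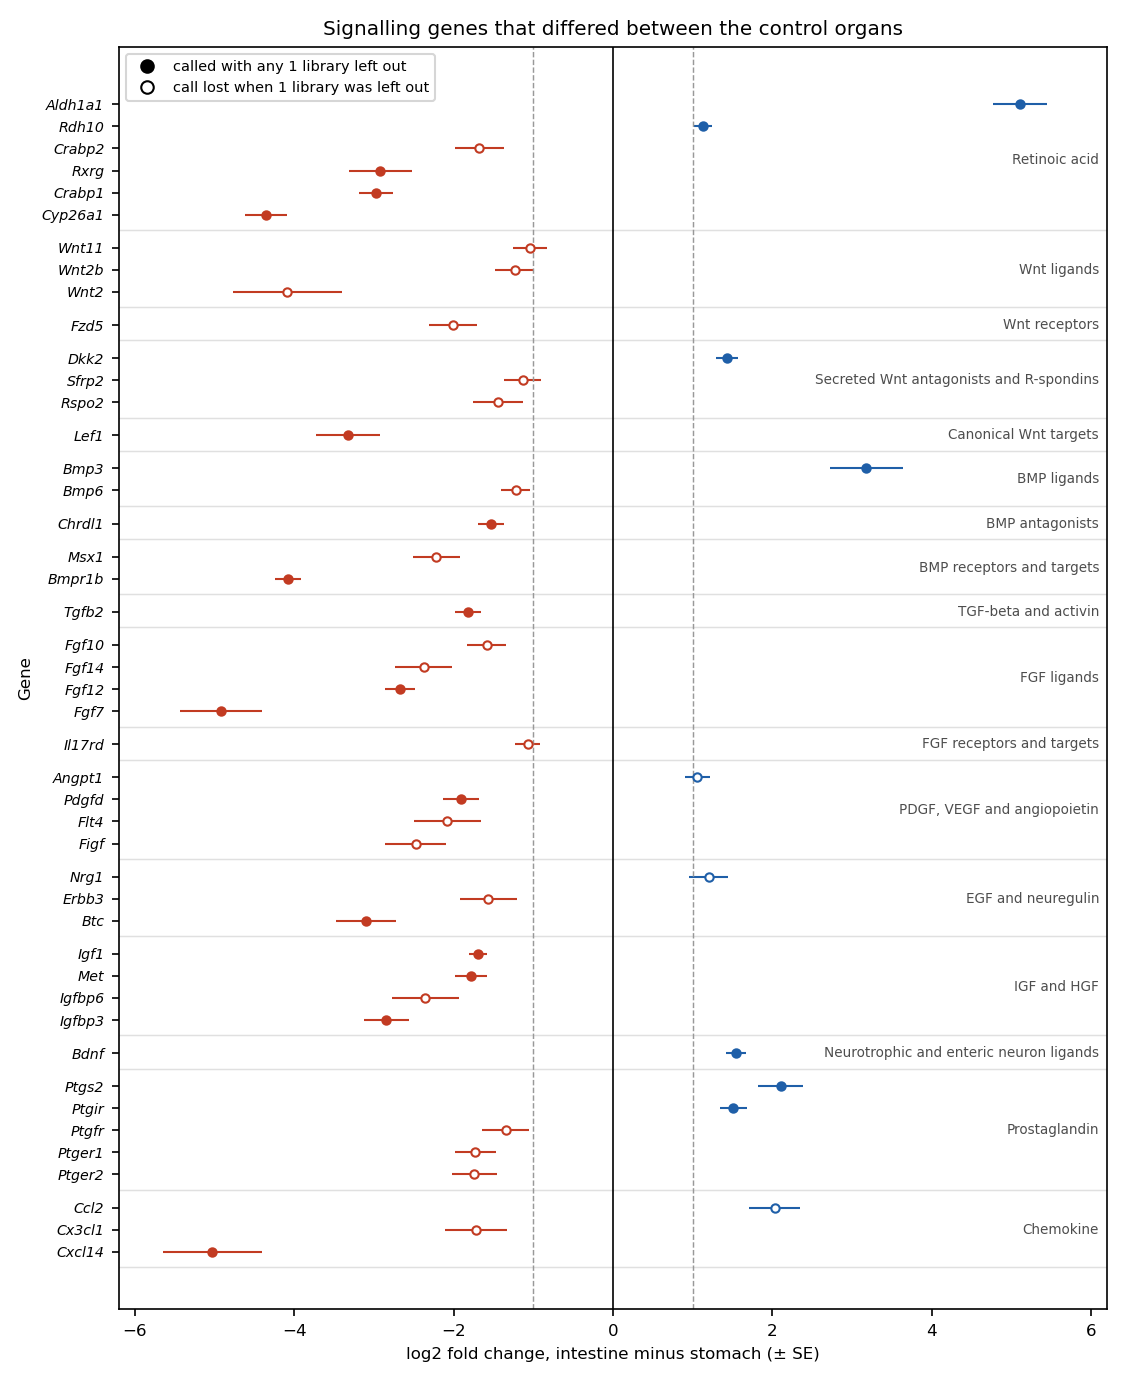
The log2 fold change with its standard error of the 45 signalling DEGs picked by the naming rule with over 3 counts in each organ, grouped by list, with dashed lines at the 2-fold cutoff. Most points lie on the gastric side, *Aldh1a1* and *Bmp3* stand out on the intestinal side, and open points are genes whose call was lost when 1 library was left out.

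DEGs of cell adhesion were all gastric in the protocadherins and went both ways in the cadherins. Cadherins bind cells of a kind to each other, and delta protocadherins are related surface proteins best known in the nervous system. Of 12 delta protocadherins, 4 were gastric DEGs and none intestinal. *Pcdh19* was at 20.004 and 28.6 CPM in the intestine libraries and 109 and 118 CPM in the stomach libraries (log2 fold change -2.23 ± 0.26, adjusted p = 0.0025), *Pcdh10* at 25.3 and 33.3 CPM in the intestine libraries and 99.4 and 85.3 CPM in the stomach libraries (log2 fold change -1.66 ± 0.18, adjusted p = 0.0019). *Pcdh11x* was at 8.4 and 9.15 CPM in the intestine libraries and 32.6 and 31.2 CPM in the stomach libraries (log2 fold change -1.86 ± 0.11, adjusted p = 0.00023). *Pcdh8* was 3.53-fold higher in the stomach, and all 4 calls held with any 1 library left out. *Cdh13* (T-cadherin), a cadherin without a cytoplasmic tail, was the leading intestinal adhesion gene, at 42.8 and 45.3 CPM in the intestine libraries and 4.38 and 4.74 CPM in the stomach libraries (log2 fold change 3.27 ± 0.25, adjusted p = 0.00055). Of 21 cadherins 6 were gastric DEGs, among them the neuronal types *Cdh8* (log2 fold change -2.28 ± 0.28, adjusted p = 0.0032), *Cdh18* and *Cdh4*, while *Cdh11*, the abundant cadherin of mesenchyme, did not pass the test (log2 fold change 0.24 ± 0.12, adjusted p = 0.37). The calls of *Cdh18* and *Cdh4* (log2 fold changes -2.36 and -1.93) were lost for *Cdh18* without intestine library 1 (adjusted p = 0.054) and *Cdh4* with any library left out (adjusted p from 0.098 to 0.16).

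Guidance molecules, which steer axons and migrating cells, had gastric DEGs only, 3 of 22 in the ephrin list and 3 of 18 in the list of Slit, Robo, netrin and Unc5 genes. *Epha1*, an ephrin receptor, was at 2.64 and 2.83 CPM in the intestine libraries and 15 and 14.7 CPM in the stomach libraries (log2 fold change -2.44 ± 0.20, adjusted p = 0.00069). *Ntng1*, a netrin tethered to the membrane, was at 5.34 and 5.52 CPM in the intestine libraries and 19.8 and 20.1 CPM in the stomach libraries (log2 fold change -1.88 ± 0.20, adjusted p = 0.0019). *Dcc*, a netrin receptor, was at 0.365 and 0.202 CPM in the intestine libraries and 3.36 and 4.92 CPM in the stomach libraries (log2 fold change -3.83 ± 0.55, adjusted p = 0.0067). The ephrin ligand *Efnb2* was 1.85-fold higher in the stomach with an adjusted p of 0.0025, under the fold cutoff. None of 30 semaphorin and plexin genes was a DEG in edgeR, where 13 had an unadjusted p under 0.05, and DESeq2 called 1. In this list the semaphorin receptor *Nrp1* was 1.56-fold higher in the intestine (adjusted p = 0.014). A call was lost for *Dcc* without intestine library 1 (adjusted p = 0.055) or intestine library 2 (adjusted p = 0.060).

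Collagen genes with large differences were mostly minor components. *Col1a1* and *Col3a1*, bulk fibrillar collagens, did not pass the test (log2 fold change -0.16 ± 0.39, adjusted p = 0.93 and log2 fold change 0.18 ± 0.26, adjusted p = 0.85), and *Col1a2*, which pairs with *Col1a1* in type I collagen and was picked after its values were seen, lay at the threshold (log2 fold change -0.97 ± 0.23, adjusted p = 0.050). Of 42 collagen genes, 2 were intestinal and 5 were gastric DEGs. *Col6a4*, a chain of beaded filament collagen, was at 341 and 369 CPM in the intestine libraries and 27.5 and 45.2 CPM in the stomach libraries (log2 fold change 3.29 ± 0.48, adjusted p = 0.0073). *Col13a1*, a membrane-spanning collagen, was at 14.6 and 18.7 CPM in the intestine libraries and 3.51 and 2.88 CPM in the stomach libraries (log2 fold change 2.38 ± 0.22, adjusted p = 0.0010). *Col19a1*, a collagen associated with fibrils and basement membranes, was at 0.365 and 0.639 CPM in the intestine libraries and 8.72 and 10.4 CPM in the stomach libraries (log2 fold change -4.27 ± 0.36, adjusted p = 0.00075), and the cartilage collagen *Col2a1* at 1.49 and 2.19 CPM in the intestine libraries and 24 and 18.4 CPM in the stomach libraries (log2 fold change -3.53 ± 0.54, adjusted p = 0.0084). *Col8a1*, a network collagen of vessel walls, had a log2 fold change of -2.39. The call was lost for *Col6a4* without stomach library 1 (adjusted p = 0.062) and *Col2a1* without intestine library 1 (adjusted p = 0.097) or intestine library 2 (adjusted p = 0.055). *Col8a1* lost its call without intestine library 1 (adjusted p = 0.053).

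Among 54 matrix glycoproteins and proteoglycans, 3 were intestinal and 4 were gastric DEGs. *Thbs4* (thrombospondin 4), found in tendon and muscle, was at 137 and 183 CPM in the intestine libraries and 7.8 and 11.7 CPM in the stomach libraries (log2 fold change 4.03 ± 0.32, adjusted p = 0.00069). The tenascin genes, which encode large modular glycoproteins, moved in opposite directions. *Tnc* was at 18.4 and 19.1 CPM in the intestine libraries and 104 and 99.8 CPM in the stomach libraries (log2 fold change -2.44 ± 0.17, adjusted p = 0.00042). *Tnxb* was at 16.5 and 19.6 CPM in the intestine libraries and 2.84 and 4.08 CPM in the stomach libraries (log2 fold change 2.38 ± 0.47, adjusted p = 0.025). *Dcn* (decorin), a proteoglycan that binds collagen, was at 101 and 135 CPM in the intestine libraries and 298 and 525 CPM in the stomach libraries (log2 fold change -1.81 ± 0.29, adjusted p = 0.0100), and *Dpt* (dermatopontin) was 15.7-fold higher in the stomach (adjusted p = 0.0043). The proteoglycan *Ogn* was at the fold cutoff (log2 fold change -1.03), as was the matrix protein *Spon2* in the other direction (log2 fold change 1.23). Calls depended on the libraries for *Tnxb* with any library left out (adjusted p from 0.097 to 0.16) and *Dcn* without intestine library 1 (adjusted p = 0.10). *Ogn* lost its call without intestine library 1 (adjusted p = 0.11) or stomach library 2 (adjusted p = 0.086). *Spon2* lost its call with any library left out (adjusted p from 0.10 to 0.13). Of 29 laminin and integrin genes 1 was a gastric DEG (3.45%, near the 3.39% of all tested genes). The abundant integrin *Itgb1* did not pass the test (log2 fold change 0.14 ± 0.11, adjusted p = 0.68). *Dpt* had a log2 fold change of -4.67 without intestine library 2.

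The promoters of the tenascin pair are shown because only one of them had a peak in both organs. CpG is again in capitals, over the 250 bases before the start.
Tnxb: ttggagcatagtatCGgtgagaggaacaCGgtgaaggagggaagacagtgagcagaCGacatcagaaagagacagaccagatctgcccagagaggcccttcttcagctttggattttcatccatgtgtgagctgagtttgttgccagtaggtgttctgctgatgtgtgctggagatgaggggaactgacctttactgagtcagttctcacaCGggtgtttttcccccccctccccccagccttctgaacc
Tnc: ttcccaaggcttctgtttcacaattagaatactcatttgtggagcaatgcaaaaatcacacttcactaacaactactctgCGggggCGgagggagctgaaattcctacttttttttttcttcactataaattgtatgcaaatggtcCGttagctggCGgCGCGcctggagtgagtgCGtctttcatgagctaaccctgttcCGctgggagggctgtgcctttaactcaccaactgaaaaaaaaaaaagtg

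At *Tnxb* (chr17:34670285-34670534, plus strand), with 4 CpG, the intestinal list had a peak with a fold enrichment of 3.95 and the gastric list had none. The RNA call was lost for *Tnxb* with any library left out (adjusted p from 0.097 to 0.16). At *Tnc* (chr4:64047016-64047265, minus strand, the first of 2 starts), with 8 CpG, both lists had a peak, with a fold enrichment of 6.59 in the intestine and 5.87 in the stomach. An unlisted peak is one that fell short of the authors' threshold in pooled reads.

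**Figure D5:**
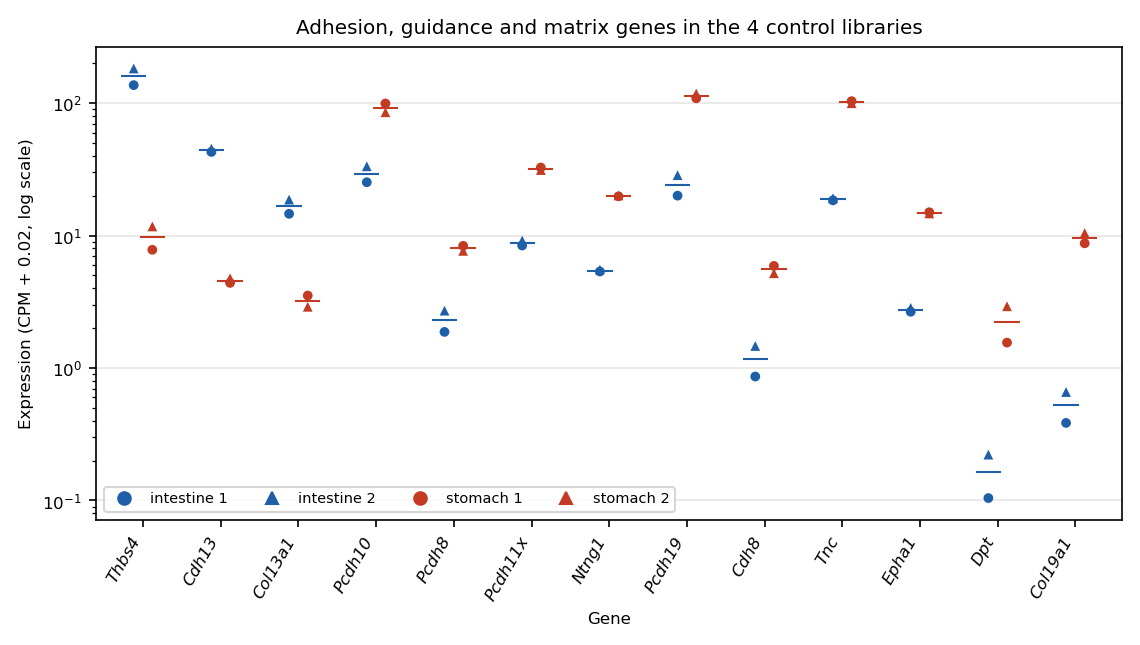
Expression of the 13 adhesion, guidance and matrix genes picked by the naming rule whose call held with any 1 library left out, in each control library (CPM plus 0.02 on a log scale, bars at the mean of an organ). *Thbs4*, *Cdh13* and *Col13a1* are higher in the intestine and the other 10 in the stomach, with no overlap of the points in any gene.

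Among genes of smooth muscle, interstitial cells and pericytes the DEGs were intestinal and had small differences. Under the fold cutoff, 3 genes were higher in the stomach at an adjusted p under 0.05. They were *Fhl1* of the smooth muscle list (log2 fold change -0.81, adjusted p = 0.0074), and *Gja1* and *Kcnj8* of the other list (log2 fold changes -0.62 and -0.72, adjusted p = 0.016 and 0.026). Of 25 smooth muscle genes 22 had a positive log2 fold change (list median 0.21) and 3 (12%) were intestinal DEGs, all near the cutoff, against 1.68% of all tested genes. These were *Synpo2*, an actin-binding protein, *Des* (desmin), an intermediate filament, and *Ldb3*, a protein of the contractile lattice (log2 fold changes 1.25, 1.18 and 1.24). *Acta2*, smooth muscle actin, was at 2491 and 1594 CPM in the intestine libraries and 1889.7 and 1877 CPM in the stomach libraries (log2 fold change 0.12 ± 0.23, adjusted p = 0.90). Among 11 genes of interstitial cells of Cajal and pericytes, the pericyte gene *Rgs5* and the ETS factor *Etv1*, which marks interstitial cells, were intestinal DEGs with *Angpt1*, 27.3% of that list (log2 fold changes 1.09 and 1.03), and the receptor *Kit* did not pass the test (log2 fold change 0.36 ± 0.13, adjusted p = 0.20). None of these calls held throughout, being lost for *Synpo2* with any library left out (adjusted p from 0.085 to 0.19) and *Des* without intestine library 2 (adjusted p = 0.072) or stomach library 1 (adjusted p = 0.074) or stomach library 2 (adjusted p = 0.090). *Ldb3* lost its call with any library left out (adjusted p from 0.099 to 0.25). *Rgs5* lost its call without intestine library 1 (adjusted p = 0.11) or intestine library 2 (adjusted p = 0.21) or stomach library 1 (adjusted p = 0.19). *Etv1* lost its call without intestine library 1 (log2 fold change 0.99) or stomach library 1 (log2 fold change 1.00). *Angpt1* lost its call without intestine library 1 (adjusted p = 0.058) or stomach library 1 (log2 fold change 0.88).

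DEGs among genes of cartilage and of the mesenchyme of spleen and pancreas were all gastric. The stomach develops beside the spleen and dorsal pancreas. Of 12 genes in that list 4 were gastric DEGs and none intestinal. They include *Nkx2-5*, *Isl1* and *Wt1*, whose values stand above, and the spleen regulator *Tlx1* had no counts in the intestine and 1.57 and 0.357 CPM in the stomach without passing the test (adjusted p = 0.076). Of 15 cartilage and bone genes, *Sox9*, *Col2a1* and *Col11a1* were gastric DEGs and none was intestinal. *Col11a1*, a minor fibrillar collagen, was at 64.1 and 84.5 CPM in the intestine libraries and 209 and 276 CPM in the stomach libraries (log2 fold change -1.71 ± 0.32, adjusted p = 0.021). Calls were again lost for *Nkx2-5* without intestine library 1 (adjusted p = 0.15) or intestine library 2 (adjusted p = 0.077) and *Wt1* without intestine library 1 (adjusted p = 0.097) or stomach library 1 (adjusted p = 0.091) or stomach library 2 (adjusted p = 0.10). *Col2a1* lost its call without intestine library 1 (adjusted p = 0.097) or intestine library 2 (adjusted p = 0.055). *Col11a1* lost its call with any library left out (adjusted p from 0.054 to 0.18).

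No DEG was found among genes of proliferation and chromatin, against 5.07% of all tested genes. None of 27 genes of G1/S and S phase, 29 genes of G2 and M phase, 8 CDK inhibitors or 30 Polycomb subunits was a DEG or passed at any fold size in edgeR. At an unadjusted p under 0.05 there were 2, 0, 2 and 4 of them in this order, and DESeq2 called 1 CDK inhibitor and none of the others. All 29 genes of G2 and M phase had a positive log2 fold change, with a median of 0.22 and none past the test. The Polycomb-associated histone chaperone *Rbbp7* was at 451 and 436 CPM in the intestine libraries and 550.4 and 592 CPM in the stomach libraries (log2 fold change -0.36 ± 0.09, adjusted p = 0.062). Among 27 imprinted genes, *Peg10*, a gene of retrotransposon origin, was an intestinal DEG at 617 and 503 CPM in the intestine libraries and 269 and 270.1 CPM in the stomach libraries (log2 fold change 1.05 ± 0.12, adjusted p = 0.0020). *H19* was at 5145 and 5812 CPM in the intestine libraries and 5369 and 5733 CPM in the stomach libraries (log2 fold change -0.02 ± 0.11, adjusted p = 0.98). The gastric DEG was *Slc22a3*, an organic cation transporter (log2 fold change -2.49 ± 0.51, adjusted p = 0.029), with a log2 fold change of -1.62 without stomach library 1. Calls were lost for *Peg10* without intestine library 1 (log2 fold change 0.91) and *Slc22a3* without intestine library 1 (adjusted p = 0.17) or intestine library 2 (adjusted p = 0.17) or stomach library 1 (adjusted p = 0.094).

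Immediate early genes, which rise within minutes of cell dissociation, were often nominally higher in the stomach. Of 23 tested, 19 had a negative log2 fold change, with a list median of -0.58, and 2 were gastric DEGs. *Dusp1*, a phosphatase of the MAP kinase pathway, was at 27 and 15 CPM in the intestine libraries and 58.5 and 45.6 CPM in the stomach libraries (log2 fold change -1.31 ± 0.27, adjusted p = 0.028). *Klf4* was at 6.8 and 6.73 CPM in the intestine libraries and 12.1 and 15.6 CPM in the stomach libraries (log2 fold change -1.03 ± 0.15, adjusted p = 0.0075). *Fos* was at 378 and 179 CPM in the intestine libraries and 611 and 529.8 CPM in the stomach libraries, with intestine libraries that differed by more than the stomach libraries did, and it did not pass the test (log2 fold change -1.03 ± 0.33, adjusted p = 0.13). Calls were lost for *Dusp1* without intestine library 2 (adjusted p = 0.080) or stomach library 1 (adjusted p = 0.15) or stomach library 2 (adjusted p = 0.069) and *Klf4* without intestine library 1 (adjusted p = 0.076) or intestine library 2 (adjusted p = 0.061) or stomach library 2 (log2 fold change -0.83).

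The largest differences outside the lists and the excluded genes were headed in the intestine by *Mab21l2*. This gene, which acts in eye and ventral body wall development, was at 519 and 598 CPM in the intestine libraries and 3.45 and 0.255 CPM in the stomach libraries (log2 fold change 8.27 ± 0.84, adjusted p = 0.0016). Its stomach libraries were unequal, and the log2 fold change was 11.08 without stomach library 1 and 7.34 without stomach library 2. *Glp2r*, the receptor of the intestinal growth hormone GLP-2, was at 25.6 and 28.2 CPM in the intestine libraries and 0.464 and 0.357 CPM in the stomach libraries (log2 fold change 6.03 ± 0.21, adjusted p = 2.5e-05). *Slc4a10*, a bicarbonate transporter, was at 37.4 and 25.2 CPM in the intestine libraries and 1.91 and 1.45 CPM in the stomach libraries (log2 fold change 4.22 ± 0.26, adjusted p = 0.00026). *Sgpp2*, which breaks down sphingosine 1-phosphate, was at 28.5 and 31.7 CPM in the intestine libraries and 2.09 and 1.53 CPM in the stomach libraries (log2 fold change 4.06 ± 0.24, adjusted p = 0.00024). The others were *Nptx1*, a neuronal pentraxin (log2 fold change 3.34), the transporter *Abcc2* (log2 fold change 3.23), the protease *Adamts18* (log2 fold change 3.42), the receptor *Il17re* (log2 fold change 3.59), the matrix gene *Hmcn2* (log2 fold change 3.50), *3830403N18Rik* (log2 fold change 3.60), *Aldh1a7* and *Gm20467*. *Aldh1a7*, a near copy of *Aldh1a1*, was at 91.6 and 47.4 CPM in the intestine libraries and 3.86 and 4.54 CPM in the stomach libraries (log2 fold change 4.05 ± 0.31, adjusted p = 0.00055), and reads of the pair may have been divided between them. *Gm20467*, a predicted gene, had a log2 fold change of 6.52, which was 11.14 without stomach library 1, the only stomach library with counts. The call was lost for *Hmcn2* with any library left out (adjusted p from 0.12 to 0.22). Without 1 library, log2 fold changes moved to 11.08 without stomach library 1 and 7.34 without stomach library 2 for *Mab21l2*, 4.22 without stomach library 1 for *3830403N18Rik* and 4.11 without stomach library 1 for *Adamts18*. That of *Hmcn2* was 4.14 without stomach library 2.

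The gastric genes of this kind were led by *Pappa2* and *Lor*. *Lor* (loricrin), a structural protein of the skin barrier, was at 0.421 and 0.404 CPM in the intestine libraries and 29.5 and 25.7 CPM in the stomach libraries (log2 fold change -6.05 ± 0.21, adjusted p = 2.5e-05). *Pappa2*, a protease that frees IGF from its binding proteins, was at 0.0281 and 0.202 CPM in the intestine libraries and 7.83 and 13 CPM in the stomach libraries (log2 fold change -6.55 ± 0.58, adjusted p = 0.00097). *Kcns3*, a potassium channel subunit, was at 1.21 and 1.75 CPM in the intestine libraries and 38.5 and 56.1 CPM in the stomach libraries (log2 fold change -5.01 ± 0.30, adjusted p = 0.00026). *Cdo1*, which breaks down cysteine, was at 1.26 and 1.78 CPM in the intestine libraries and 33.7 and 42.4 CPM in the stomach libraries (log2 fold change -4.65 ± 0.20, adjusted p = 5.9e-05). Each of these was at 1.78 CPM or less in the intestine libraries. *Dcx* (doublecortin), a microtubule protein of migrating neurons, was at 1.29 and 1.58 CPM in the intestine libraries and 41.7 and 28 CPM in the stomach libraries (log2 fold change -4.60 ± 0.30, adjusted p = 0.00032). The metabotropic glutamate receptor *Grm3* (log2 fold change -5.51), the synaptic organiser *Cbln2* (log2 fold change -4.69), the seizure-related gene *Sez6* (log2 fold change -4.94), the scaffold gene *Frmpd4* (log2 fold change -4.28) and *Ralyl* (log2 fold change -4.42) are also best known from neurons. The peptidases *Ecel1* (log2 fold change -5.61) and *Xpnpep2* (log2 fold change -4.45) completed the 12. All 12 calls held with any 1 library left out, and neuronal markers *Uchl1* and *Stmn2* were gastric DEGs as well (log2 fold changes -1.88 and -1.87), although the call was lost for *Stmn2* with any library left out (adjusted p from 0.064 to 0.18). The log2 fold change became -5.66 without intestine library 1 and -8.37 without intestine library 2 for *Pappa2*, -4.78 without intestine library 1, -7.19 without intestine library 2 and -4.84 without stomach library 1 for *Ecel1*, -3.90 without intestine library 1 and -6.14 without intestine library 2 for *Cbln2* and -5.05 without intestine library 2 for *Frmpd4*.

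Most of these genes had accessible chromatin at their starts in both organs, as did most tested genes. Of 114 DEGs picked by the naming rule with an entry in the promoter table, 100 had a peak over the promoter window in both control lists (87.7%), against 92.0% of the 11281 tested genes in that table. Among 30 intestinal DEGs, 25 had a peak in both lists, 2 in the intestine alone, 1 in the stomach alone and 2 in neither. Among 84 gastric DEGs 75 had a peak in both lists, 2 in the intestine alone, 2 in the stomach alone and 5 in neither. Where both lists had a peak, the fold enrichment was higher in the organ with more RNA for 15 of 25 intestinal and 33 of 75 gastric DEGs. Over all tested genes with a peak in both lists the intestine had the higher enrichment in 53.5% and the stomach in 46.5%. At *Mab21l2* the enrichment was 5.29 for the intestine against 3.51 for the stomach, and at *Glp2r* it was 6.1 and 2.9. These are 1 value per organ without replicates.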

How the data were processed

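RNA-seq and ATAC-seq were done on sorted GFP+ mesenchymal cells. For RNA, the authors trimmed stranded poly(A) reads with Trimmomatic 0.32, aligned them with STAR 2.5.1b to GRCm38 and deposited raw counts per GENCODE gene from featureCounts, with spike-in RNA added. Reads that match several genes alike can be lost or divided in such counting, which affects near-identical copies. For ATAC, the authors aligned reads with BWA and called broad peaks with MACS2 2.1.2 on pooled replicates, and the deposited lists give a fold enrichment ratio and -log10 q-value per peak.

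Spike-in rows were dropped from the gene counts, which left 43280 genes. Genes passing filterByExpr of edgeR 4.0.16 (16218) were scaled by TMM and fitted with 1 mean for each of 4 groups over the 8 embryonic libraries, deletion libraries included, so that all share 1 estimate of spread (biological coefficient of variation 15.8%). The contrast of control intestine and control stomach was put to edgeR's quasi-likelihood F-test, and p-values were adjusted over all tested genes by Benjamini-Hochberg. Standard errors were derived from the fold change and F. A permutation test over 2 against 2 libraries cannot go below p = 0.333, so none is given for single values. On simulated counts for this comparison, over 15989 genes, recovery meant an adjusted p under 0.05 in the right direction, with no fold cutoff. By this measure 69% of genes changed 2-fold and 95% of genes changed 4-fold were recovered, with 9 false calls, 6 of them over 2-fold. Genes changed 2-fold had a median estimated log2 size of 0.997, next to the fold cutoff of DEGs, so fewer of them would be called DEGs. The 2 libraries of each organ differed beyond sampling noise and counted as separate.

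Named genes were, in each list and direction, up to 4 DEGs with the largest change at 1 CPM or more in the higher organ, up to 2 members with the highest level per length (TPM, computed here from the counts and the gene lengths in a table of adult libraries) that were no DEGs, and 12 genes in each direction outside the lists at 5 CPM or more. Some of these are not reported here. The members, lists and rule were chosen with earlier results of these data known. Alternatives were DESeq2 1.42.0, with and without 1 RUVg factor from the spike-ins, RLE factors, spike-in scaling, no low-count filter, control libraries alone, a replicate block, and each control library left out. Promoter sequences came from RefSeq (GRCm38.p6), and a peak counted where it overlapped the window from 250 bases before to 50 bases after the start. RNA libraries of the deletion embryos entered the fit only, and apart from those gene lengths the other files were not used here.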

Additional observations from a re-analysis of the deposited data

How the results depend on the processing

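The counts of DEGs depended on scaling and on single libraries. The direction of the 151 DEGs named in the text was the same under each alternative that tested them (control libraries alone left *Sp5* and *Wnt3* untested). As DEGs they differed over 2-fold, so a change of direction was unlikely beforehand. Scaling by spike-in RNA left 70 intestinal and 85 gastric DEGs and 155 genes at any fold size, in place of 273, 549 and 1107, and of the original DEGs 68 and 79 were still called. With 1 control library left out, the counts were 149 to 173 intestinal DEGs, 214 to 330 gastric DEGs and 394 to 538 genes at any fold size, and a lone library is then assumed to vary like the other groups. Genes at any fold size numbered 1841 with DESeq2 and 1 RUVg factor. DESeq2 alone gave 327 and 653 DEGs, RLE factors 274 and 541, no low-count filter 360 and 747, and control libraries alone 285 and 544. The causes of these changes were not tested.

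A fit with the replicate block gave 372 intestinal and 751 gastric DEGs and 2595 genes at any fold size. The labels do not say that equal numbers share embryos, and deviations of same-numbered libraries correlated at 0.249 over the 2 numbers. In both organs library 1 had more *Xist* and less *Ddx3y*, *Eif2s3y*, *Kdm5d* and *Uty* RNA than library 2. Whether equal numbers mark shared embryos is therefore not settled, and the fit without the block was kept.

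Genes that did not pass the test changed sign in some fits. Under spike-in scaling the log2 fold changes were 0.192 for *Bmpr1a*, 0.0936 for *Col1a1*, 0.212 for *Foxf1*, 0.264 for *H19*, 0.0515 for *Igf2*, 0.295 for *Sfrp1*, 0.287 for *Six5* and 0.171 for *Tcf21*. *Six5* was at 0.0041 with the RUVg factor. With a library left out, *Acta2* ranged from -0.228 to 0.406, *Col1a1* from -0.426 to 0.0785, *H19* from -0.107 to 0.0791, *Sfrp1* from -0.0954 to 0.0831 and *Six5* from -0.0388 to 0.0378. A level under 0.0757 to 0.0992 CPM, the limit of a count of 0, cannot be told from none in a library.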
